A study of Homo sapiens with 2 samples.

Results

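The mitochondrial ribosomal proteins were taken as the probe sets whose single gene symbol is MRPL or MRPS followed by a number. The rule found 140 probe sets among the 54675 of the array, 83 for 48 genes of the large subunit (MRPL) and 57 for 27 genes of the small subunit (MRPS), so 75 of the 19775 genes that have a probe set of their own. All 75 genes had at least 1 probe set with a signal above 50, the floor that the study's methods set. Above 50 in at least 1 array were 108 of the 140 probe sets, 65 MRPL and 43 MRPS. The other 32, spread over 24 genes, were at or under 50 in both arrays with a highest signal of 46.7, and no fold is given for them.

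The data are 2 arrays, 1 per condition, of the human colorectal adenocarcinoma line HT-29. The control array was from cells given a pool of non-targeting siRNA, although the treatment field of its label reads None, and the other from cells given a pool of siRNA against MYC, both at 20 nM. Transfection lasted 24 h and the cells were used after 48 h. With 1 array per condition nothing was tested, and the variation between cultures cannot be told apart from the treatment.

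Mitochondria translate the few proteins encoded by their own DNA, which are subunits of the respiratory chain and ATP synthase, on ribosomes of bacterial descent. The ribosomal RNAs come from mitochondrial DNA, while the MRPL and MRPS proteins are encoded in the nucleus, made in the cytosol and imported. Part of them have a counterpart in bacterial ribosomes, and the rest were added in the mitochondrial lineage. MYC is a transcription factor of growth and ribosome production, and it binds DNA with its partner MAX at the E-box.

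The targeted gene, MYC, was at 1963 in the control array and 1640 after MYC siRNA, 1.20-fold lower on its single probe set. This is a log2 ratio of -0.26, and -0.16 with loess on mean signal or -0.17 with quantile normalization. Both adjusted values lie within the spread between probe sets of a gene given below (0.23). These arrays thus show at most a small fall of MYC RNA. For MYC siRNA in this line the paper reports a knockdown, with immunoblots of the MYC protein, and reduced growth. It also reports that sets of curated MYC targets were lower. The arrays read RNA alone, so the amount of MYC protein was not tested here. Of 10 colon epithelial markers, 8 were above 50 in both arrays, while CDX1 and CDX2 were under 50. Of the 8, EPCAM (5156 and 4512) and KRT18 (9363 and 9158) were lower with MYC siRNA and the others higher, most of all CEACAM5 (281 and 613, log2 ratio 1.13), LGALS4 (1771 and 3056, 0.79) and KRT20 (4973 and 7034, 0.50). The summed signal of the epithelial markers was 32896 and 37185, and the part of these differences in the results was not tested. The 3 leukocyte markers with a probe set were under 50, and COL1A1 was the single fibroblast or endothelial marker above it, at 94.7 and 78.9. The log2 ratio of all genes drifted with brightness. In 5 equal groups of genes ordered by mean signal its median was 0.15 in the dimmest, -0.01 in the second brightest and -0.10 in the brightest.

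Genes of both subunits were lower with MYC siRNA almost throughout, by a modest and similar amount. Of the 48 MRPL genes 47 were lower and 1 higher, and of the 27 MRPS genes 26 were lower and 1 higher, each gene taken at its brightest probe set. The median log2 ratio, MYC siRNA over control, was -0.33 for MRPL and -0.34 for MRPS, so the medians differed by less than 0.01. Among all 8922 genes above 50, 46.5% were lower and the median was 0.03. In these bulk samples fewer cells with a transcript and less of it per cell cannot be told apart. The middle of the MRPL genes, from the lower to the upper quartile, ran from -0.44 to -0.20, and that of the MRPS genes from -0.47 to -0.16. MRPS genes were the more spread of the subunits, with an SD over genes of 0.25 against 0.22 for MRPL.

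**Figure D1:**
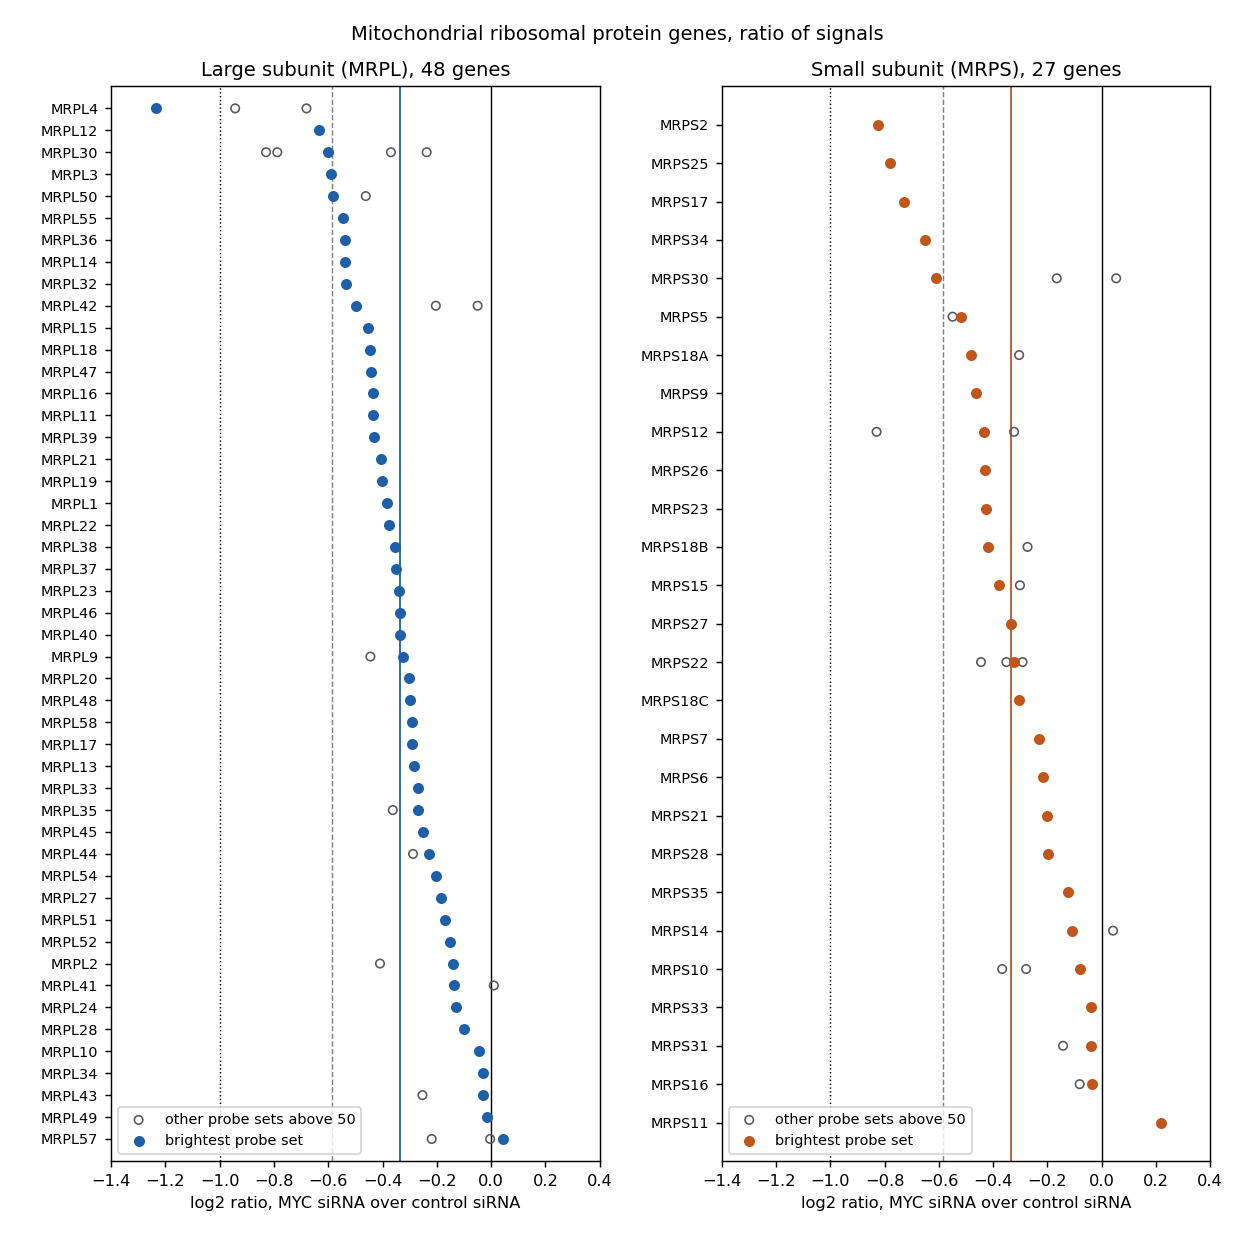
Log2 of the MYC siRNA signal over the control signal (x axis) of each MRPL gene (left) and MRPS gene (right). Filled points are the brightest probe set of a gene and open circles its other probe sets above 50, coloured lines are the subunit medians of -0.33 and -0.34, dashed lines mark 1.5-fold lower and dotted lines 2-fold lower; nearly all points lie left of 0, and MRPL4 alone lies beyond 2-fold.

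The same held over probe sets. Of 65 MRPL probe sets 63 were lower (median -0.33) and of 43 MRPS probe sets 40 were lower (median -0.30), where 49.2% of all 17127 probe sets above 50 were lower (median 0.01). At least 1.5-fold lower were 14 of the 108 member probe sets, 8 MRPL and 6 MRPS, against 5.83% of all. By gene these were 4 of 48 MRPL and 5 of 27 MRPS, against 5.72% of all genes. With loess on mean signal they were 1 and 4, where 492 of all 8922 genes passed. A ratio of at most 0.5, a DOWN DEG in the study's terms, was reached by 1 member probe set, where 0.607% of all did. None was an UP DEG, with a ratio of at least 2, where 2.19% of all were.

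Mitochondrial ribosomal protein genes were mostly bright, and had lower ratios than all genes of like brightness. Of the 75 genes 37 lay in the brightest and 34 in the second brightest of the 5 groups, 3 in the middle one and 1 below. The medians of the members in the brightest and second brightest groups were -0.35 and -0.31, beside -0.10 and -0.01 for all genes there. Below the median of their own group were 46 of the 48 MRPL and 24 of the 27 MRPS genes. Over the 75 genes the log2 ratio did not follow the signal (Spearman's rho -0.13, Pearson's r -0.03, given as a description over genes that share the same 2 arrays).

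**Figure D2:**
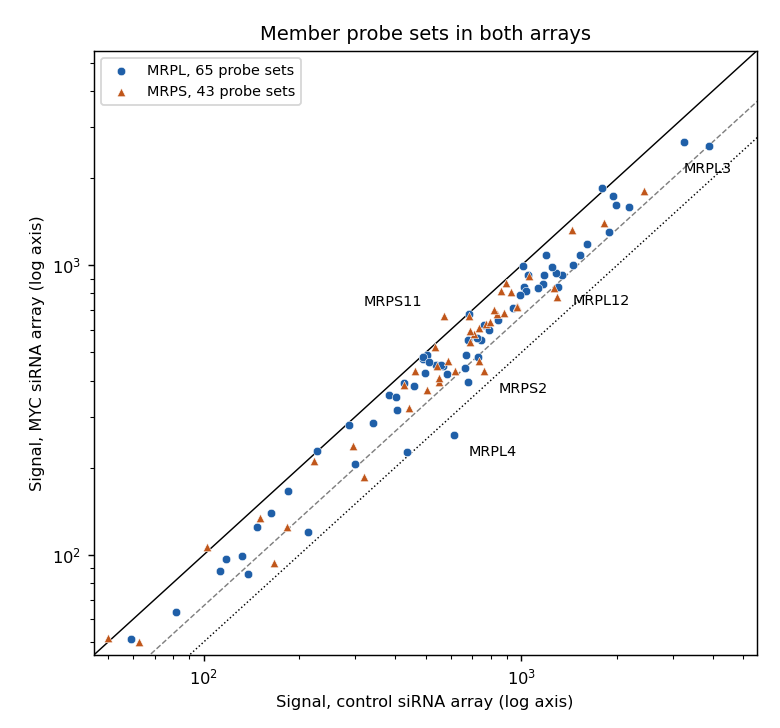
Signals of the 108 member probe sets in the control array (x axis) and the MYC siRNA array (y axis), drawn on log scales with lower values at the floor of 50. Equal signals fall on the solid line, 1.5-fold lower on the dashed and 2-fold lower on the dotted one; the points run just below the solid line over the whole range, with MRPL4 (612 and 260) past the dotted line and MRPS11 (572 and 666) above the solid one.

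Probe sets of 1 gene give a measure of technical spread, which leaves out the cultures. For all 4040 genes with several probe sets above 50 the pooled SD of their log2 ratios was 0.23, and for the 22 member genes with several it was 0.18. Lower by more than 0.23 were 35 of the 48 MRPL and 17 of the 27 MRPS genes. The remaining 23 of the 75, both higher genes included, were within that spread of no difference on their brightest probe set. Some of them had other readings past it. MRPS10 (-0.08) had -0.37 and -0.28 at like signals, and MRPL2 (-0.14) had -0.41. Part of all genes pass this cut as well. Their lower quartile was -0.22, and it was -0.25 in the second brightest and -0.29 in the brightest group. For 53 member genes a single probe set was above 50, so their ratio has no second reading.

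MRPL4 stood lowest of all members. Its bacterial counterpart lines the tunnel through which the new peptide leaves. Its brightest probe set was at 612 in control cells and 260 after MYC siRNA, 2.36-fold lower. The others were at 436 and 227, and at 138 and 86.0, with log2 ratios of -0.94 and -0.68. All 3 readings of MRPL4 were thus lower by more than 1.5-fold, although they differed by 0.56 among themselves.

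MRPL12 and MRPL10, which belong to the stalk that recruits translation factors, lay apart. MRPL12 had 1302 in the control and 839 after MYC siRNA, 1.55-fold lower. MRPL10 had 505 and 489, a log2 ratio of -0.04. Each had 1 probe set above 50, and their ratios differed by more than the spread between probe sets.

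MRPL30 had the most readings of the large subunit, and all 5 were lower. The brightest was at 729 and 481 (1.52-fold lower), and the log2 ratios of the others ran from -0.83 to -0.24. MRPL3, whose bacterial counterpart reaches towards the peptidyl transferase centre, was at 3892 and 2586 on its single probe set, 1.51-fold lower.

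Next in order were MRPL50 (664 and 443, log2 ratio -0.58), MRPL55 (300.3 and 206, -0.55), MRPL36 (1890 and 1300, -0.54), MRPL14 (1345 and 926, -0.54), MRPL32 (1452 and 1003, -0.53) and MRPL42 (1527 and 1083, -0.50). These 6 differed among themselves by less than the spread between probe sets. MRPL50 had another reading of -0.46. The other readings of MRPL42 were nearer to 0, with -0.05 at signals of 492 and 475 and -0.20 close to the floor.

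Proteins around the exit of the peptide tunnel, where new proteins meet the inner membrane, were lower in 7 of 7 genes (median -0.29). None was lower by 1.5-fold. Of all genes 46.5% were lower, and 5.72% by at least 1.5-fold. MRPL47 had 1607 in the control and 1184 after MYC siRNA (log2 ratio -0.44). MRPL22 had 726 and 560.0 (-0.37) and MRPL23 had 1250.0 and 988 (-0.34). MRPL17 had 763 and 623 (-0.29), MRPL45 had 540.2 and 454 (-0.25), MRPL44 had 496 and 423 (-0.23) and MRPL24 had 427 and 391 (-0.13). Of these, MRPL45 helps to hold the ribosome at the inner membrane. The last of them lay within the spread of no difference.

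The central protuberance, which faces the small subunit and the tRNAs, gave 6 of 6 lower genes (median -0.33), beside 46.5% of all genes. MRPL18 had 1280.4 and 939 (log2 ratio -0.45), MRPL38 had 405 and 317 (-0.35), and MRPL46 had 565 and 448 (-0.33). MRPL40 had 1030.2 and 817 (-0.33), MRPL48 had 559 and 454 (-0.30) and MRPL27 had 1048 and 923 (-0.18). Their SD over genes was 0.09, against 0.22 for all MRPL genes, which include MRPL4 at -1.24. The exit proteins above had 0.10, so close values were not particular to the protuberance.

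In the small subunit MRPS2 was lowest, at 763 in the control and 430.3 after MYC siRNA, 1.77-fold lower on its single probe set. It belongs, with MRPS5 and MRPS12, to the proteins of the mRNA path and decoding centre, and all 3 were lower (median -0.52). The share lower among all genes was 46.5%. MRPS5 had 619 and 432, with -0.52 and -0.55 in its readings. MRPS12, whose bacterial counterpart governs the accuracy of decoding, had 2434 and 1801 (-0.43). A dimmer probe set of MRPS12 gave -0.83 (167 and 93.9) and the dimmest, at 62.5 and 39.96, gave -0.32 with the floor.

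MRPS25, MRPS17 and MRPS34 followed MRPS2 at 320 and 186 (1.72-fold lower), 1292 and 779 (1.66-fold) and 735 and 467 (1.57-fold). MRPS17 has a bacterial counterpart, and MRPS25 and MRPS34 are specific to mitochondria. Of the remaining low genes, MRPS9 had 442 and 321 (-0.46) and MRPS26 had 551 and 409 (-0.43). Each of these 5 genes rests on 1 probe set above 50.

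MRPS30 and MRPS18A are small subunit proteins by name, whereas in structures of the human mitochondrial ribosome both sit in the large subunit. The brightest reading of MRPS30 was 1269 and 832, 1.53-fold lower, but its dimmer ones were at 151 and 134 (-0.17) and at 103 and 107 (0.05). MRPS18A had 551 and 394 (-0.48), with -0.30 in its other reading. Its relatives of the S18 family were close to it, MRPS18B at 966 and 722 (-0.42) and MRPS18C at 836 and 677 (-0.30). With MRPS30 and MRPS18A counted in the large subunit, the medians were -0.34 for 50 large and -0.32 for 25 small subunit genes.

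MRPS11 and MRPL57 were the members that were higher. MRPS11 had 572 in the control and 666 after MYC siRNA, 1.16-fold higher, on 1 probe set above 50. MRPL57 had 1796 and 1853 on its brightest probe set (1.03-fold higher), 682 and 681 on the next and 162 and 140 on the dimmest (-0.22). Both differences lay within the spread between probe sets.

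Readings went both ways in 4 genes, MRPL41, MRPL57, MRPS14 and MRPS30. MRPL41 had 1197 and 1089 (-0.14) and, on a dimmer probe set, 228 and 229 (0.01). MRPS14 had 464 and 430 (-0.11) and a dim probe set at 36.1 and 51.5, which is 0.04 with the floor. Differences over 0.5 between readings occurred in MRPL4, MRPL30 and MRPS30, and in MRPS12 through a reading whose MYC siRNA signal was set to the floor.

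Close to no difference were further MRPL49 (1009 and 998, -0.02), MRPL43 (491 and 481, -0.03), MRPL34 (286 and 280, -0.03), MRPS16 (683 and 667, -0.04), MRPS31 (534 and 520, -0.04) and MRPS33 (896 and 872, -0.04). All 6 were well above the floor of 50 in both arrays. A dimmer reading of MRPL43 was -0.25.

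Among MRPL genes, those with a bacterial counterpart were the lower ones, with a median of -0.39 in 30 genes against -0.27 in 18 mitochondria-specific genes. Among MRPS genes the order was turned, with -0.23 in 15 genes against -0.42 in 12. Over both subunits the medians were -0.37 in 45 genes and -0.33 in 30. These gaps were not tested, and the ranges of the classes overlapped widely. At least 1.5-fold lower were 4 of the 30 MRPL genes with a bacterial counterpart and 0 of the 18 specific ones. For MRPS these were 2 of 15 and 3 of 12. Among all genes the share was 5.72%, so counts this small do not tell the classes apart.

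Outside the rule, 3 probe sets named a mitochondrial ribosomal protein gene with another gene. The probe set of MRPS24, shared with the read-through transcript URGCP-MRPS24, had 2590.1 and 1827 (1.42-fold lower). That of MRPL53 with CCDC142 had 748 and 728, and that of MRPL51 with SPTLC1 had 331 and 315. Genes listed with the mitochondrial ribosome under other names, NDUFAB1 among them, were lower in 5 of 5 (median -0.25), beside 46.5% of all genes. GADD45GIP1 had 448 and 294 (1.52-fold lower) and DAP3 had 1218 and 1046 (1.16-fold, with a log2 ratio of -0.09 in its other reading). NDUFAB1, an acyl carrier protein rather than a ribosomal protein, had 4897 and 3843 (1.27-fold).

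Genes that assemble the mitochondrial ribosome or process and modify its RNA were lower in 27 of 30 measured genes (median -0.32). The share among all genes was 46.5%. At least 1.5-fold lower were 5 of the 30, beside 5.72% of all genes. C1QBP, an RNA-binding protein of the matrix, had 4022 and 2093 (1.92-fold lower), with a log2 ratio of -1.05 in its other reading. The rRNA methyltransferases MRM3 and MRM1 had 172 and 96.3 (1.79-fold lower) and 116 and 68.7 (1.70-fold). Higher were YBEY, an endoribonuclease, at 113 and 147 (log2 ratio 0.38), MTG1 at 125 and 126 (0.02) and RPUSD3, a pseudouridine synthase family member, at 78.1 and 115 (0.56). The other reading of RPUSD3 was -0.81.

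Mitochondrial translation factors were lower in 15 of 16 measured genes (median -0.33), beside 46.5% of all genes. Neither this list nor that of the assembly genes was matched for brightness. MRRF, which recycles ribosomes after translation, had 264 and 165 (1.60-fold lower), and the elongation factor TUFM had 1889 and 1289 (1.47-fold). SLIRP, which binds mitochondrial mRNA, had 3086 and 2173 (1.42-fold lower). The initiation factor MTIF3 was the exception at 348 and 496 (0.51). Cytosolic ribosomal proteins were lower in 51 of 52 genes with a smaller median (-0.23) and a smaller SD over genes (0.11). RPL27A apart (148 and 115), they lay in the brightest group, where 61.6% of all genes were lower and the median was -0.10. How far brightness makes up their difference was not tested. At least 1.5-fold lower was 1 of these 52, RPL14 (4141 and 2728), against 9 of the 75 mitochondrial genes and 5.72% of all genes. The 9 fell to 1 MRPL and 4 MRPS genes with loess on mean signal. RPS27L (1914 and 2259, a log2 ratio of 0.24, with 0.69 in its other reading) was the higher one.

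**Figure D3:**
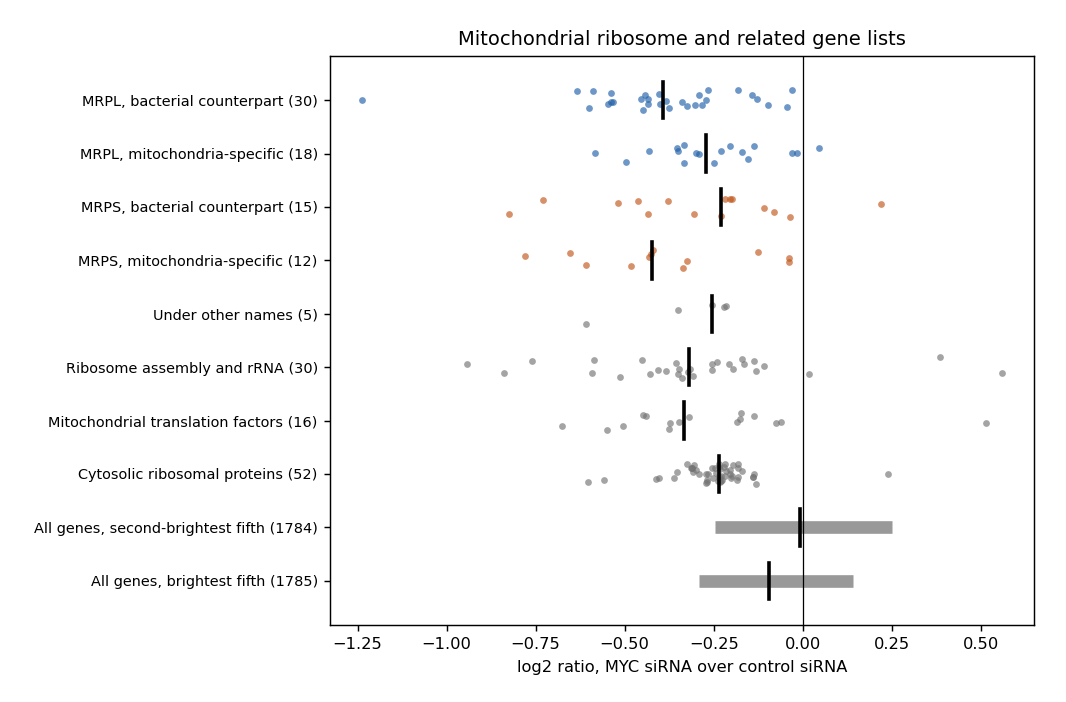
Log2 of the MYC siRNA signal over the control signal (x axis) for the genes above 50 (points) of the mitochondrial ribosomal protein classes and 4 related lists, where brackets give how many genes were plotted and black bars the list medians. Grey bars span the lower to the upper quartile of all genes in the brightest and second brightest of 5 groups, whose medians are -0.10 and -0.01; all list medians lie to the left of these.

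Promoters were read from RefSeq (GRCh38.p14), as windows from 250 bases before to 50 after each start, for 67 of the 75 genes. No entry was used for MRPL2, MRPL10, MRPL13, MRPL15, MRPL21, MRPL23, MRPL35 and MRPS28. On either strand 4 motifs were searched, of which none contains another. These were the E-box CACGTG, the core of ETS factor sites CCGGAAG, the YY1 core AAGATGGCG and GCATGCGC of the NRF1 site. The E-box was present in 9 of 67 member genes (13.4%), beside 13.7% of 7362 protein-coding genes above 50 and 8.77% of all 27305 genes with a window. The ETS core was found in 43.3% of members beside 25.5% of the coding genes above 50, the YY1 core in 17.9% beside 5.37%, and the NRF1 letters in 8.96% beside 7.06%. MRPL and MRPS genes had the ETS core in 41.5% and 46.2%. The members with an E-box had a median log2 ratio of -0.35 and those without of -0.33, with the ETS core these were -0.30 and -0.38, and with the YY1 core -0.45 and -0.32. A match is a description of letters in a window, and binding was not measured here.

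The windows shown next were picked to show the motifs in member genes of unlike ratios, with matches in capitals. MRPS2 (chr9:135499715-135500014, plus strand), the lowest MRPS gene, has an E-box 56 bases before its start. MRPL22 (chr5:154940823-154941122, plus), with a ratio near the MRPL median, holds an E-box, the NRF1 letters and the YY1 core. MRPL49 (chr11:65121933-65122232, plus), at a ratio close to 0, also holds an E-box, 245 bases before its start. MRPS34 (chr16:1773085-1773384, minus), 1.57-fold lower, holds the ETS core 3 times and no E-box. MRPL4 had none of the 4 motifs in either of its windows.
MRPS2: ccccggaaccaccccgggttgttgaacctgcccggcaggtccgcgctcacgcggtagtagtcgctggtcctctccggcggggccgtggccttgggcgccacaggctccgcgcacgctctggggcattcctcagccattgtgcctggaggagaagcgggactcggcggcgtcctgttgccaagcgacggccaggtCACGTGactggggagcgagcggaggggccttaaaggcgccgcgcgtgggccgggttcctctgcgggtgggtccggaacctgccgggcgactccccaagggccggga
MRPL22: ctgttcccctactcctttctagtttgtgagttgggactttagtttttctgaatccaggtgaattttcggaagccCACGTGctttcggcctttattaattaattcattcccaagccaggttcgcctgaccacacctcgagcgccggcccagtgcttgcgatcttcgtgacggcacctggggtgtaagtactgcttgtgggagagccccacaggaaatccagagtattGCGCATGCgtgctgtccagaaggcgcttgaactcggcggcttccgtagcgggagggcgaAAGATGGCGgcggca
MRPL49: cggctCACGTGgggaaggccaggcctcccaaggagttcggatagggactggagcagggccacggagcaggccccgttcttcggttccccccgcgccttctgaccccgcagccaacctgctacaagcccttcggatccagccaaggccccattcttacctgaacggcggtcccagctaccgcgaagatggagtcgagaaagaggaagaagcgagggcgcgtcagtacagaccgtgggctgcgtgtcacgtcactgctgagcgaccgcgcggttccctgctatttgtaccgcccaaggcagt
MRPS34: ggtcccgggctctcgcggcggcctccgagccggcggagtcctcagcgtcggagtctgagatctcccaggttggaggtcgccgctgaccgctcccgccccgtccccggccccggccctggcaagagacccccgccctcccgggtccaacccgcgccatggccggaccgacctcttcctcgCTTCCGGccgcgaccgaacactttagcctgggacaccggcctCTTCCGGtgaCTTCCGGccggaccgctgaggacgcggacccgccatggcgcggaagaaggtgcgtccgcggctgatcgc

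Divergent neighbours start within 1000 bases on the other strand and are read away from the member. They share the stretch between the starts with the member, but need not be its closest neighbour. MRPL54 was paired with APBA3, 990 bases away, while a start of a gene that is not protein-coding, and has no probe set, lies 42 bases away. Of 17 pairs with both genes above 50, the median log2 ratio was -0.33 for the member and -0.07 for the neighbour. The neighbour was lower in 10 pairs and higher in 7, where 46.5% of all genes were lower. Most neighbours were dimmer than their member, and the pairs were not matched for brightness, with which the log2 ratio of all genes drifted. MRPS2 and PIERCE1 start 96 bases apart, with the E-box shown above between them for MRPS2, and PIERCE1 went from 58.2 to 102, a log2 ratio of 0.81 against -0.83 for MRPS2. ZNF189, the neighbour of MRPL50, went from 66.8 to 108 (0.69) and HELQ, that of MRPS18C, from 50.05 to 78.0 (0.64, with 0.24 in another reading). All 3 neighbours were dim, in the range where all genes had a median of 0.15. PPP1R10, the brighter neighbour of MRPS18B, had 208 and 266 (0.35, and 0.32 in its other reading). On the other side, HIRA next to MRPL40 had 899 and 632 (-0.51), and EME1 next to MRPL27 had 200.1 and 156 (-0.36, with -0.02 in its other reading). PTCD2 next to MRPS27 had 163 and 129 (-0.34), and PSMA2 next to MRPL32 had 3384 and 2722 (-0.31, with -0.06 in its other reading). FAU, a cytosolic ribosomal protein gene 49 bases from MRPL49, had 6643 and 5646 (-0.23) beside -0.02 for MRPL49. The E-box of the MRPL49 window, 245 bases before its start, lies past this start of FAU and not between the starts.

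**Figure D4:**
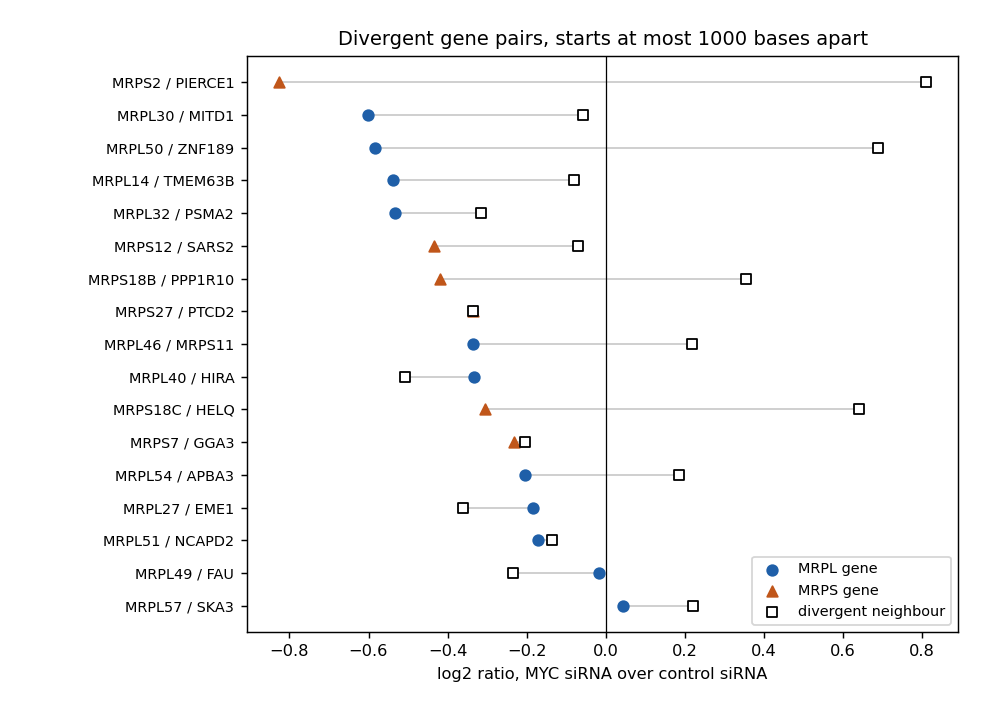
Log2 of the MYC siRNA signal over the control signal (x axis) of 17 member genes (coloured points) and of the divergent neighbour (open squares), joined by a line for each pair. Of the neighbours 10 lie left of 0 and 7 right of it, with the widest pair MRPS2 and PIERCE1 at -0.83 and 0.81.

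In 1 divergent pair both genes were members. MRPL46 and MRPS11 start 320 bases apart on chromosome 15, and their windows share 181 bases. MRPL46 was lower, from 565 to 448 (-0.33), and MRPS11 higher, from 572 to 666 (0.22), each on 1 probe set. The windows, MRPL46 (chr15:88467339-88467638, minus) and MRPS11 (chr15:88467458-88467757, plus), are shown since the members of this pair had ratios of opposite sign. The capitals mark the YY1 core just after the start of MRPL46, which lies outside the shared bases, and no motif was found in the window of MRPS11.
MRPL46: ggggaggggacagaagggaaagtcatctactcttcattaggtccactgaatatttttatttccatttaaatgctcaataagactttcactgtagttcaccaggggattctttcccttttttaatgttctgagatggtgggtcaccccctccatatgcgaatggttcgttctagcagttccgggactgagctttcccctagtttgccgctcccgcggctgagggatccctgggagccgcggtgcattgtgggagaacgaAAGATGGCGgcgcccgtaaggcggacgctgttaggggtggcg
MRPS11: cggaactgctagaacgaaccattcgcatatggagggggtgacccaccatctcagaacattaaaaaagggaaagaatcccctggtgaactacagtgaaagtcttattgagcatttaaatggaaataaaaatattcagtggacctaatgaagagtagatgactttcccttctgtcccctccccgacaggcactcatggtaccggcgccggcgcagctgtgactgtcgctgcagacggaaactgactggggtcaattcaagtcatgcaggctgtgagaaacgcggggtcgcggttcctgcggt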

How the data were processed

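The deposited values were MAS5 signal intensities of Affymetrix U133 Plus 2.0 arrays, which the authors computed with affy 1.40.0, bringing the mean of each array to 100. The trimmed mean was checked and was 100 in both arrays. Of 54675 probe sets, 41097 name 1 gene, 1801 several and 11777 none in the platform table. All 75 member genes matched RefSeq (GRCh38.p14) by gene identifier. Signals under 50 were set to 50, as in the study's methods, and log2 ratios, MYC siRNA over control, were computed for the 17127 probe sets that passed 50 on either array. A gene took its brightest probe set. With 1 array per condition no p-value was computed, and the number of arrays limits the precision. Probe sets ending in _s_at or _x_at can bind several transcripts, and 68 of the 108 member probe sets do.

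The members, the gene lists and the rule for named genes were chosen with earlier results of these data known. The rule names genes past 2-fold, the 10 lowest of each subunit, higher genes, genes whose readings disagree and genes of role lists. Other genes near 0, the divergent neighbours, their distance limit and the ETS, YY1 and NRF1 motifs were chosen after values were seen. Alternatives were floors of 25 and 100, no floor with 1 added, median centring, quantile normalization, loess with a span of 0.3, other probe set choices and subunits by structure. The calculations were tested on simulated data. Python 3.11.15, numpy 2.4.6, pandas 2.3.3, statsmodels 0.14.6 and matplotlib 3.10.9 were used.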

Additional observations from a re-analysis of the deposited data

How the results depend on the processing

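Over 12 alternatives each, the median log2 ratio ran from -0.35 to -0.27 for MRPL and from -0.34 to -0.28 for MRPS, and the difference of the medians from -0.03 to 0.02. Loess on mean signal gave -0.27 and -0.28, and quantile normalization -0.28 and -0.30, with 46 of 48 and 46 of 48 MRPL genes and 24 and 25 of 27 MRPS genes lower. MRPL and MRPS medians stayed below 0 in every alternative run. With _s_at and _x_at probe sets, which may bind more than 1 transcript, left out, fewer genes could be read: 22 of 22 MRPL and 13 of 14 MRPS genes were lower, 6 of 40 probe sets were at least 1.5-fold lower and 0 were at least 2-fold lower, since the 2-fold reading of MRPL4 is such a probe set. In the other alternatives the counts of lower genes and of probe sets past 1.5-fold or 2-fold moved by no more than 1.5 times. The count of genes at least 1.5-fold lower was less stable. For MRPL it fell from 4 of 48 to 1 with loess and 2 with quantile normalization. For MRPS it fell from 5 of 27 to 4 with either. Of all 8922 genes, 492 passed with loess and 551 with quantile normalization. The median over probe sets was added after the values were seen. No paired analysis was possible because each condition has 1 array. Leaving out an array leaves no comparison.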
